A study of Homo sapiens with 8 samples.

Results

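The spliceosome and splicing factor genes were taken from GENCODE release 44 as the protein-coding genes whose symbols begin with SNRP, SNRNP, SF3A, SF3B, PRPF, LSM, U2AF or SRSF followed by a letter or a digit. This gave 71 genes of the 20033 protein-coding genes outside the mitochondrial genome. Symbols alone set the list, and 5 of the 71 were classed as without a part in splicing (LSM12, LSM14A, LSM14B, LSMEM1 and LSMEM2). LSM1, LSM10 and LSM11 also act outside splicing, as described below, but were not put among these 5. A gene was called bound when a peak on hg38 touched the 1000 bp before or the 500 bp after the transcription start site (TSS) of any of its transcripts.

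The spliceosome removes introns from pre-mRNA. Its small nuclear ribonucleoproteins (snRNPs) each carry a U-rich RNA inside a ring of Sm or LSM proteins, together with proteins of their own. U1 recognizes the 5′ splice site, U2 with the SF3A, SF3B and U2AF proteins recognizes the branch point and the 3′ splice site, the U4/U6.U5 tri-snRNP brings in the catalytic RNAs, and SR proteins bind exons and recruit these factors. Their genes are active in nearly all cells and mostly have CpG-rich promoters, the kind of promoter at which the nonspecific lethal (NSL) complex, a chromatin complex around the acetyltransferase KAT8, is known to act.

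PHF20 and PHF20L1 are homologous Tudor domain proteins of NSL complexes. Each was over-expressed with a triple HA tag in U2OS, a human osteosarcoma cell line, and DNA bound to it was isolated with an HA antibody and sequenced (ChIP-Seq), with chromatin taken before the antibody step as input. The PHF20 samples were 2 ChIP libraries and 1 input, all N-3xHA PHF20 Over-expressed, and the PHF20L1 samples were 3 ChIP libraries and 2 inputs, of which 1 ChIP and 1 input were N-3xHA PHF20L1 Over-expressed and 2 ChIP and 1 input were C-3xHA PHF20L1 Over-expressed. All of them carry ectopic protein in cells sorted for GFP, and no library of the endogenous proteins was used here. The authors combined the replicates of each protein into 1 final list, 4147 peaks for PHF20 and 723 for PHF20L1, which gives positions only. The lists carry neither the read depth nor the values per replicate behind a peak, so no difference was tested, and the 95% Wilson intervals given with shares cover counting error only. A gene without a peak is one where the authors' thresholds gave no call, and binding below those thresholds remains possible there.

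Stretches of 8 promoters with peaks of both proteins and of 2 without any peak are shown first, because short letters in them are counted below. They are read from hg38 (GRCh38) on the strand of the gene, 5′ to 3′, and reach at most 30 bases into the transcript, except for SNRPB, where only the 30 bases around the letters are shown. Capitals mark CCGGAAGT or its reverse complement ACTTCCGG, a form of the sequence that ETS transcription factors recognize. Only exact matches are marked, so shorter or variant forms stay in lower case. The stretches do not show how frequent the letters are. They include every gene with peaks of both lists that holds CCGGAAGT near its outermost TSS, 6 of 13, and the only such unbound gene. The letters are marked at SNRPB (chr20:2470812-2470841, minus strand), SF3B3 (chr16:70523541-70523606, plus strand), SF3B6 (chr2:24076428-24076535, minus strand) and SNRPA1 (chr15:101295305-101295412, minus strand). They are also marked at PRPF6 (chr20:63980976-63981083, plus strand), SNRNP27 (chr2:69893892-69893985, plus strand) and, without a peak, SF3B4 (chr1:149927774-149927879, minus strand). At SF3B1 (chr2:197435081-197435186, minus strand), also without a peak, capitals mark CACGTG, an E-box. SNRPB2 (chr20:16729841-16729990, plus strand) and SNRPC (chr6:34757385-34757534, plus strand) have among the widest PHF20 peaks of the family but neither of these letters in the stretch shown, and the capital there marks the outermost TSS.
SNRPB: agtgagctggaCCGGAAGTaggtttctacc
SF3B3: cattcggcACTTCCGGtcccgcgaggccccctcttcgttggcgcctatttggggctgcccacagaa
SF3B6: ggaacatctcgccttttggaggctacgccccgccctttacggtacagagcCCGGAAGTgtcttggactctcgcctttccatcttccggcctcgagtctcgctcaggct
SNRPA1: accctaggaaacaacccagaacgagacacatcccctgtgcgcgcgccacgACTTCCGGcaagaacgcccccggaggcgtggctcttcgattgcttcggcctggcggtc
PRPF6: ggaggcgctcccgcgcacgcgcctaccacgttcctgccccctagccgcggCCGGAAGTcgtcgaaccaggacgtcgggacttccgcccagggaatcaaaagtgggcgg
SNRNP27: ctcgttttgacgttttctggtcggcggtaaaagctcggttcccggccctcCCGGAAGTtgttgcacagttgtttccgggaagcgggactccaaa
SNRPB2: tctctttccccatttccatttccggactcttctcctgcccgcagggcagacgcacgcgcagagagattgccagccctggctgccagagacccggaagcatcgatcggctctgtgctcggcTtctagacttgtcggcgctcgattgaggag
SNRPC: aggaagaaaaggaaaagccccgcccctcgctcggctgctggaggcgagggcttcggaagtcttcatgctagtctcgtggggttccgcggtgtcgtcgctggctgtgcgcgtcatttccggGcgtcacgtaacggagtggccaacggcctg
SF3B4: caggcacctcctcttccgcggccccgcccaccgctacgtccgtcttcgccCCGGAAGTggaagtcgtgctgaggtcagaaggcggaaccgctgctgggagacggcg
SF3B1: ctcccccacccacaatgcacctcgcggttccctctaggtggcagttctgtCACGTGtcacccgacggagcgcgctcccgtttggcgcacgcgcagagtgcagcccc

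A PHF20 peak lay at the promoter of 37 of the 71 genes (52.1%, 40.7% to 63.3%), and 20.7% of all protein-coding genes had one. A PHF20L1 peak lay at 13 of the 71 (18.3%, 11% to 28.8%), with 3.82% of all protein-coding genes. Each of these 13 also had a PHF20 peak, so that the same 13 genes had peaks of both lists, with 3.73% of all genes. Thus 0 of the 71 had a PHF20L1 peak alone. This is a general trait of the lists, as 747 of the 766 protein-coding genes with a PHF20L1 peak also had a PHF20 peak. The other 34 genes (47.9%) had a peak of neither protein, beside 79.2% of all protein-coding genes. Among the PHF20-bound genes the share that also had a PHF20L1 peak was 35.1% (21.8% to 51.2%), beside 18% of all PHF20-bound genes.

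The promoters were also compared within their own kind. A promoter was counted as CpG-rich when the 250 bp on either side of the outermost TSS had an observed to expected CpG ratio of at least 0.6 and a GC content of at least 50%. This held for 63 of the 71 genes (88.7%) and for 59.3% of all protein-coding genes. Within CpG-rich promoters PHF20 peaks were found at 34 of 63 of the splicing genes (54.0%, 41.8% to 65.7%) beside 28.8% of all such genes, and PHF20L1 peaks at 12 of 63 (19.0%, 11.2% to 30.4%) beside 5.26%. Of the 8 genes with other promoters, 3 had a PHF20 peak, beside 8.87% of all genes of that kind. The median CpG ratio was 0.886 at bound and 0.860 at unbound splicing genes, and the median GC content 59.7% and 62.4%. The bound genes had a longer promoter window summed over their TSSs, at a median of 4437 bp beside 3208 bp for the unbound ones, and its part in the binding calls was not tested.

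**Figure D1:**
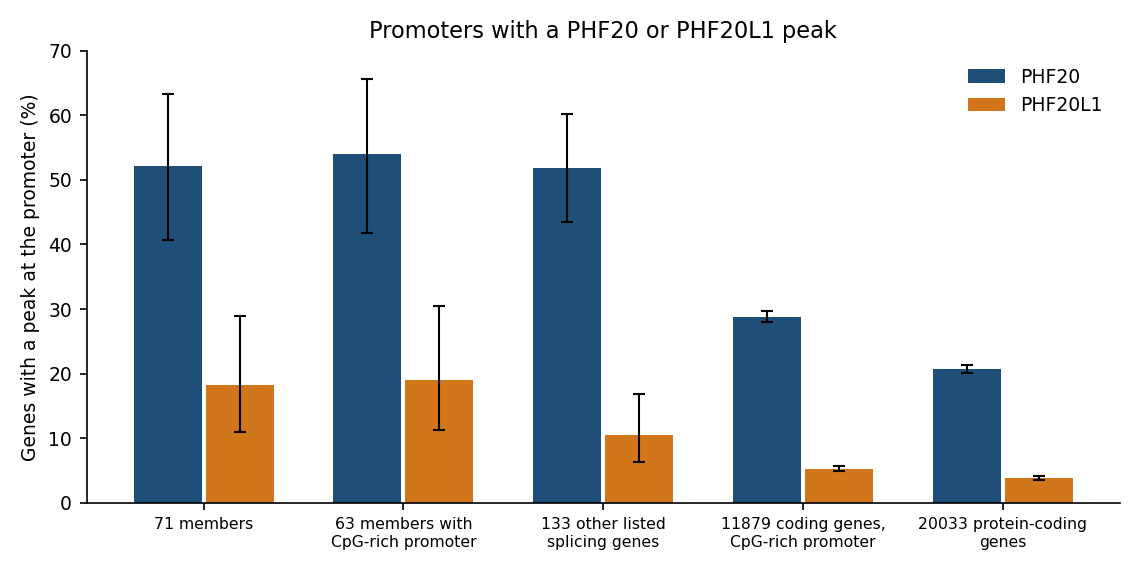
Share of genes with a PHF20 (blue) or PHF20L1 (orange) peak at the promoter, in percent, for the splicing genes, those with a CpG-rich promoter, other listed splicing genes and all protein-coding genes. Error bars are Wilson 95% intervals. The PHF20 bar of the 71 splicing genes stands at 52.1% and that of all coding genes at 20.7%.

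By role, the U1 genes were bound by PHF20 in 6 of 6 cases (61.0% to 100%), the genes of U2 and the 3′ splice site in 10 of 14 (71.4%, 45.4% to 88.3%), those of the Sm ring in 5 of 8 (62.5%), the SR proteins in 7 of 12 (58.3%) and those of the LSM ring in 4 of 8. In the tri-snRNP and activation class it was 4 of 13 (30.8%, 12.7% to 57.6%). Of all protein-coding genes 20.7% had a PHF20 peak, and of those with a CpG-rich promoter 28.8%. Both values lie within the interval of the tri-snRNP class, which is thus not shown to differ from genes in general. Of the 3 genes of the U11/U12 minor spliceosome 1 was bound. Of the U7 genes LSM10 and LSM11, of histone mRNA processing, and the 5 genes classed as without a part in splicing, 0 were bound. Leaving those 5 genes aside, the intervals of the classes overlap except for U1, from 61.0%, and the tri-snRNP class, up to 57.6%. That gap is small and depends on the rule for a peak. SNRPA loses its PHF20 call when peaks go to the gene of the nearest TSS. When peaks under the median width of the PHF20 list are left out, PRPF39, PRPF40B, SNRNP70 and SNRPA lose theirs. The bound tri-snRNP genes all keep their calls under that rule. The classes were drawn with earlier results known, and no difference between them was tested. PHF20L1 peaks lay at 4 genes of U2, 3 of the Sm ring, 2 of the tri-snRNP and 1 each of U1, the minor spliceosome, the LSM ring and the SR proteins. Of all protein-coding genes 3.82% had one.

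**Figure D2:**
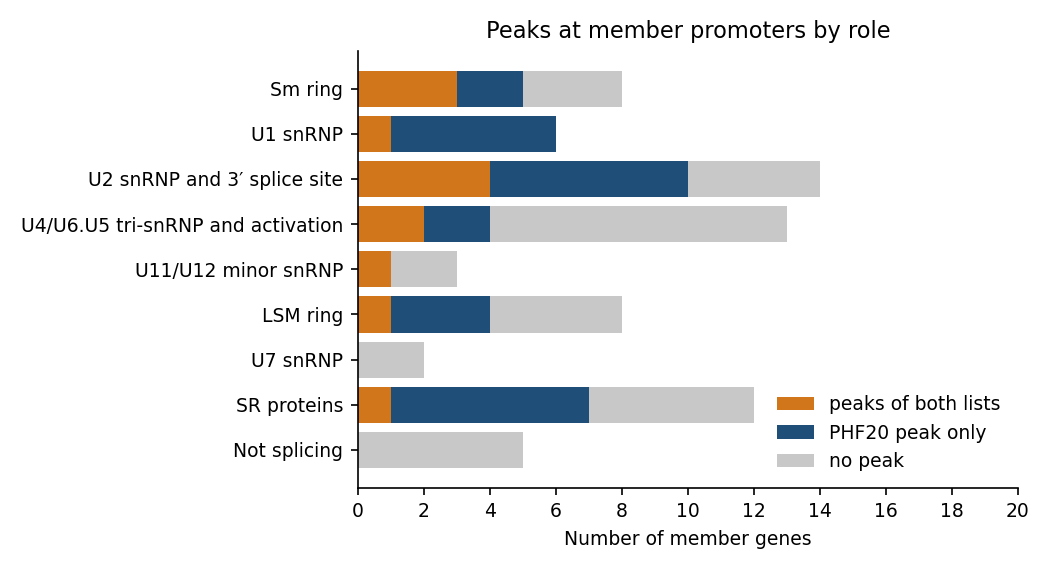
Number of splicing genes by role with peaks of both lists (orange), a PHF20 peak only (blue) or no peak (grey). All 6 genes of the U1 class carry a PHF20 peak, whereas 9 of the 13 tri-snRNP and activation genes (69.2%) carry none. Of all protein-coding genes 79.2% have a peak of neither list.

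Sm proteins form the ring that holds the U1, U2, U4 and U5 RNAs. SNRPG, SNRPD3 and SNRPB had peaks of both lists. The PHF20 peak of SNRPG was 1025 bp wide (chr2:70293232-70294256) and its PHF20L1 peak 238 bp (chr2:70293482-70293719). SNRPD3 had a PHF20 peak of 854 bp (chr22:24555432-24556285) and the second widest PHF20L1 peak of the family, 469 bp (chr22:24555485-24555953), which ends 5 bp short of the nearest SNRPD3 TSS and lies also at the promoter of the divergent GUCD1. At SNRPB, which encodes the B and B′ proteins, the widths were 723 bp (chr20:2470244-2470966) and 264 bp (chr20:2470542-2470805). SNRPD1 and SNRPE had PHF20 peaks alone, of 895 and 752 bp. SNRPD2, SNRPF and SNRPN had no promoter peak. SNRPN, the paralog of SNRPB that is mainly expressed in neurons, was the 1 unbound gene with a PHF20 peak inside its annotated body, 862 bp wide (chr15:24877862-24878723). A PHF20L1 peak of 295 bp lay within it (chr15:24878180-24878474), and its nearer edge was 21579 bp from the nearest SNRPN TSS.

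All 6 genes placed in the U1 class had a PHF20 peak. The Sm proteins are part of U1 too, but their genes were counted in their own class, where SNRPD2 and SNRPF had no peak. SNRPC, whose zinc finger protein helps U1 to bind the 5′ splice site, had a peak of 1344 bp (chr6:34756631-34757974), wider than 96.6% of the PHF20 list, and was the only one of the class with a PHF20L1 peak, of 302 bp (chr6:34757249-34757550). The peaks of SNRNP70 (the U1-70K protein) and PRPF39 were 493 and 487 bp wide. SNRPA, whose protein binds a stem-loop of U1 RNA, had 1 peak of 276 bp (chr19:40750318-40750593), among the 3 narrowest when each gene is taken by its widest peak. It is also at the promoter of the divergent ACTMAP. Its nearer edge is 44 bp from a SNRPA TSS and its centre 7 bp from the TSS of ACTMAP. PRPF40B had a peak of 512 bp at its outermost TSS (chr12:49567772-49568283) and one of 224 bp some 54566 bp downstream (chr12:49622673-49622896). The first is also at the promoter of MCRS1, which encodes an NSL subunit, and its centre is 73 bp from the TSS of MCRS1.

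The U2 class held the widest peak of the family. SNRPB2, which encodes the U2 protein B″, had a PHF20 peak of 1535 bp (chr20:16729137-16730671), wider than 99.1% of the list. Only 35 peaks at protein-coding promoters were wider. The TSS nearest to the centre of the SNRPB2 peak, 24 bp away, is that of another gene, ENSG00000228809, and the nearest SNRPB2 TSS is 57 bp away. The PHF20L1 peak of SNRPB2 was 430 bp wide (chr20:16729794-16730223). SNRPA1, the partner of SNRPB2 on the U2 RNA, had peaks of 1284 bp (chr15:101294609-101295892) and 311 bp (chr15:101294850-101295160). Of the SF3B genes, SF3B3 had peaks of 1117 bp (chr16:70523189-70524305) and 260 bp (chr16:70523617-70523876), and SF3B6, whose protein contacts the branch point adenosine, of 660 bp (chr2:24075852-24076511) and 246 bp (chr2:24076282-24076527).

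SF3B2 and SF3B5 had wide PHF20 peaks without a PHF20L1 peak. The SF3B2 peak spanned 1350 bp (chr11:66051752-66053101) and the SF3B5 peak 1050 bp. All genes of the SF3A trimer were bound by PHF20 alone, with peaks of 584 bp at SF3A1, 480 bp at SF3A2 and 692 bp at SF3A3. U2AF2, whose protein binds the polypyrimidine tract, had a peak of 327 bp. No peak was found at SF3B1, the largest SF3B protein and a frequent target of mutation in myeloid neoplasms, at SF3B4, or at U2AF1 and its paralog U2AF1L4. The absence at U2AF1 carries no information, because the authors retained uniquely mapped reads. Of the 7077 stretches of 50 bases in its promoter windows, 438 (6.19%) were unique in hg38, whereas the next lowest member, SNRNP35, had 85.7%. Of 31 such stretches around its TSS, 27 were found again at chr21:6498748-6500297.

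The tri-snRNP and activation class had the largest number of unbound genes, 9 of 13 (69.2%), beside 79.2% of all protein-coding genes. SNRNP27 had a PHF20 peak of 859 bp (chr2:69893622-69894480) and a PHF20L1 peak of 268 bp (chr2:69893779-69894046). PRPF6, which bridges U5 and U4/U6, had peaks of 799 bp (chr20:63980832-63981630) and 240 bp (chr20:63981121-63981360). SNRNP200, the helicase that unwinds U4 from U6, and PRPF38A had PHF20 peaks alone, of 1154 and 621 bp. PRPF8, the scaffold of the catalytic centre, the U4/U6 proteins PRPF3, PRPF4 and PRPF31, the ubiquitin ligase PRPF19, the kinase PRPF4B, and PRPF18, PRPF38B and SNRNP40 had no peak. The PHF20 peak nearest to a PRPF8 TSS was 345191 bp away, and that nearest to PRPF3 27406 bp. In the minor spliceosome, which removes the rare U12-type introns, SNRNP35 had a PHF20 peak of 791 bp (chr12:123457749-123458539) and the narrowest PHF20L1 peak of the family, 200 bp (chr12:123458103-123458302), whereas SNRNP25 and SNRNP48 had none.

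LSM2 to LSM8 form the ring on U6 RNA, and LSM1 replaces LSM8 in the cytoplasmic ring that promotes decapping of mRNA. LSM5 had 2 PHF20 peaks, 1 of 932 bp at its canonical TSS (chr7:32489837-32490768) that holds a PHF20L1 peak of 422 bp (chr7:32490136-32490557), and 1 of 460 bp upstream of its outermost TSS, at the promoter of AVL9 too (chr7:32495488-32495947). LSM6, LSM1 and LSM3 had PHF20 peaks of 618, 603 and 365 bp. LSM2, LSM4, LSM7 and LSM8 had none, and for LSM2 the nearest PHF20 peak was 1814497 bp away. Beyond the promoter window, a peak came within 5000 bp of a TSS at 2 unbound genes. At LSM12 a PHF20 peak of 987 bp began 2584 bp from a TSS and a PHF20L1 peak of 295 bp 2876 bp from it, and both lie at the promoter of G6PC3. At LSM10, a U7 protein of histone mRNA processing, a PHF20 peak of 415 bp lay 3133 bp away.

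Among the SR proteins, SRSF11 was the 1 gene with a PHF20L1 peak, 519 bp wide and the widest of the family (chr1:70205417-70205935). It lies within a PHF20 peak of 1169 bp (chr1:70205165-70206333) at the outermost SRSF11 TSS, which is shared with the divergent LRRC40. A second PHF20 peak of 1341 bp (chr1:70220717-70222057), without PHF20L1, is centred 7 bp from the canonical TSS of SRSF11, 15705 bp from the outermost one. SRSF10 had 2 peaks of 503 bp (chr1:23980548-23981050) and 465 bp (chr1:23979865-23980329). SRSF5 had a peak of 1207 bp, SRSF4 of 489 bp and SRSF2, whose promoter is shared with MFSD11, of 424 bp. The narrow PHF20 peaks included those of SRSF3, 251 bp (chr6:36594292-36594542), and SRSF1, 307 bp (chr17:58006691-58006997). SRSF6, SRSF7, SRSF8, SRSF9 and SRSF12 had no peak.

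The 41 PHF20 peaks at these promoters had a median width of 692 bp, beside 635 bp for the 3562 peaks at all protein-coding promoters. The 13 PHF20L1 peaks had a median of 268 bp, beside 323 bp for 615 peaks. The median was 932 bp for the 13 PHF20 peaks that overlapped a PHF20L1 peak, the narrowest 660 and the widest 1535 bp, and 507.5 bp for the other 28, which spanned 224 to 1350 bp. The ranges overlap. At all protein-coding promoters the same medians were 974 and 572 bp.

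**Figure D3:**
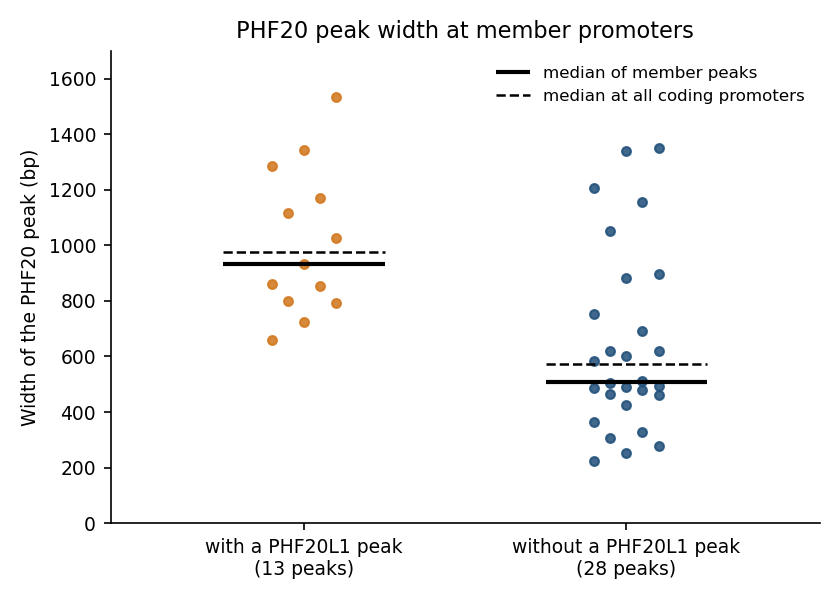
Width in bp of each PHF20 peak at the splicing genes, with and without an overlapping PHF20L1 peak. Solid lines are medians of the points (932 and 507.5 bp) and dashed lines the medians at all protein-coding promoters (974 and 572 bp).

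PHF20L1 peaks sat inside the PHF20 peaks. Of the 13, 12 lay wholly within the PHF20 peak, and at SF3B6 93.5% of the PHF20L1 peak did. They took up from 22.5% of the PHF20 peak at SNRPC to 54.9% at SNRPD3. The PHF20L1 centre lay between 223 bp upstream (SF3B6) and 245 bp downstream (SNRPA1) of the PHF20 centre, with a median of −1 bp. Most PHF20 peaks covered a TSS, with 35 of 41 spanning a TSS of the member and 36 of 41 centred within 250 bp of one. The centre lay downstream of the nearest own TSS in 24 cases and upstream in 17, at a median of 7 bp downstream. These counts were not made for all peaks, and the rule for a bound gene takes only peaks near a TSS. The authors also report that most peaks of both lists lie at promoters and that PHF20 binds most PHF20L1 regions. The positions are therefore not shown to be particular to the splicing genes. Among genes whose peaks spanned no own TSS, the nearest peak edge was 44 bp from a TSS at SNRPA, 227 bp at U2AF2, 235 bp at SRSF1 and 266 bp at LSM3, which are the bound genes closest to the limit. The unbound genes nearest to it were LSM12 and LSM10, described above.

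**Figure D4:**
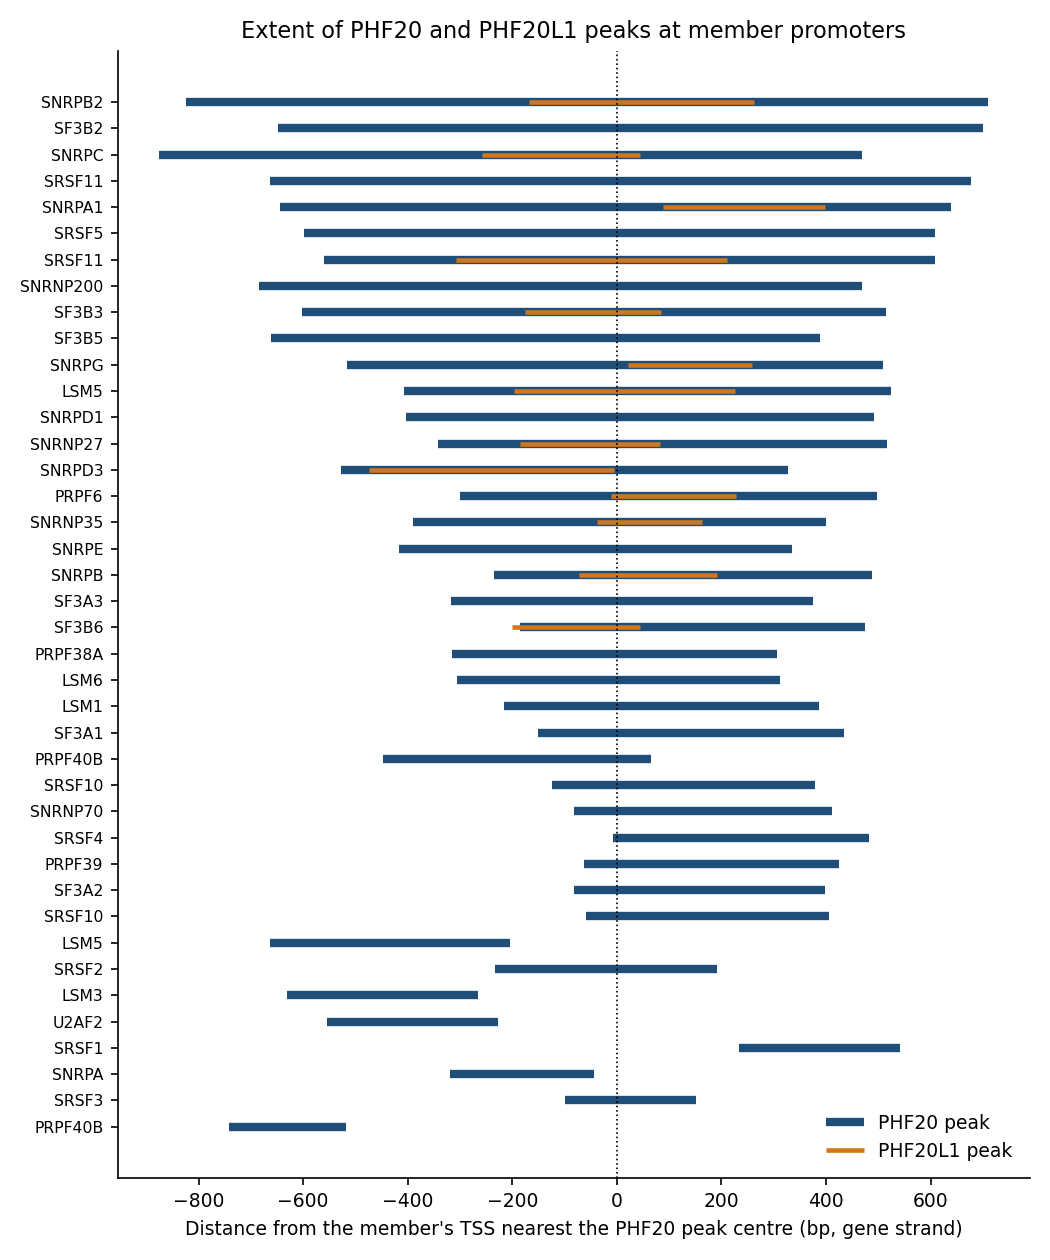
Extent of the PHF20 peaks (blue) and PHF20L1 peaks (orange) at the splicing genes, with 1 PHF20 peak not shown, in bp from the TSS of the gene nearest to the PHF20 centre, in the direction of transcription and ordered by width. Most PHF20 peaks cross the dotted line at the TSS, those of LSM3, U2AF2, SNRPA and SRSF1 and the narrower peak each of LSM5 and PRPF40B do not, and the PHF20L1 peaks lie within the PHF20 peaks except for an edge at SF3B6.

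Several genes had a peak at an internal start, far from the outermost one. The SRSF5 peak was centred 40292 bp downstream of the outermost TSS but 50 bp from the canonical TSS, the TSS of the transcript that the annotation selects as representative. The SNRNP200 peak lay 15617 bp from the outermost TSS and 108 bp upstream of the canonical one, and for SF3B2 the distances were 1697 and 62 bp. For LSM5 the peak with PHF20L1 was 4981 bp from the outermost TSS and 78 bp from the canonical one. With the outermost TSS alone, 34 genes had a PHF20 peak (47.9%, beside 17.8% of all genes), without SF3B2, SNRNP200 and SRSF5, and 12 had a PHF20L1 peak (16.9%, beside 3.21%), without LSM5.

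Many splicing genes share a promoter region with a divergent neighbour. A protein-coding TSS on the opposite strand lay within 1000 bp upstream at 23 of the 71 genes (32.4%, 22.7% to 43.9%), and at 13.2% of all protein-coding genes. Of the 23, 14 had a PHF20 peak (60.9%, 40.8% to 77.8%), beside 42.6% of all genes with such a neighbour. Of the 48 genes without one, 23 had a PHF20 peak (47.9%, 34.5% to 61.7%), beside 17.4%. A peak between such genes cannot be assigned to either of them from its position. Of the 41 PHF20 peaks, 16 lay at the promoter of another protein-coding gene too, as did 4 of the 13 PHF20L1 peaks. These included both peaks of SF3B3 (with COG4) and of SF3B6 (with FAM228B), and the PHF20 peak of PRPF6 (with SAMD10). The same count was not made for all peaks. In 8 of the 41 cases the TSS nearest to the PHF20 centre belonged only to another gene. Among these were ENSG00000228809 at SNRPB2, ENSG00000279069 at SRSF1, GUCD1 at SNRPD3, CCDC157 at SF3A1, XPC at LSM3 and the MCRS1 and ACTMAP promoters described above. With peaks assigned to the gene of the nearest TSS alone, 31 of the 71 genes had a PHF20 peak (43.7%, beside 15.3% of all genes) and 12 a PHF20L1 peak (16.9%, beside 2.71%).

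The letters CCGGAAGT, searched on both strands over the 250 bp before and the 50 bp after the outermost TSS, occurred at 12 of the 37 PHF20-bound genes (32.4%, 19.6% to 48.5%) and at 1 of the 34 others (2.94%, 0.521% to 14.9%), which was SF3B4. Among all protein-coding promoters 5.10% held them, with 13.2% of the PHF20-bound and 2.98% of the unbound ones. Of the 13 splicing genes with peaks of both lists, 6 held them, and these are the first 6 sequences shown above. The PHF20-only genes with the letters were SNRPE, PRPF40B, SF3A1, SF3A2, SF3A3 and SRSF4. Read the other way, 12 of the 13 splicing genes with the letters were PHF20-bound (92.3%, 66.7% to 98.6%), beside 53.6% of all genes with them, and 25 of the 58 without them (43.1%, 31.2% to 55.9%), beside 18.9%. Because CCGGAAGT had been named in earlier results of these data as frequent in the peaks, its presence at bound promoters is not an independent result.

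The position of the letters relative to the peaks varied. The first base lay 112 bp upstream of the outermost TSS at SF3B6, 106 bp at PRPF6, 80 bp at SNRPA1 and 14 bp at SNRNP27, at position −242 at SF3B3, and 23 bp downstream at SNRPB. At these 6 genes the letters lay inside the PHF20 peak, between 105 and 300 bp from its centre. They lay inside the narrower PHF20L1 peak only at SF3B6 and SNRNP27, 77 and 33 bp from its centre. At SRSF4 they lay outside the PHF20 peak. Over the whole length of the peaks, 15 of 41 PHF20 peaks held the letters (36.6%, 23.6% to 51.9%), beside 17.6% of the peaks at all protein-coding promoters. The peaks of LSM5, SF3B2, SRSF5 and U2AF2 joined the list in this count. Of the SF3A and SF3B genes with a peak, SF3B5 was the exception without the letters in it, and of the bound SR protein genes only SRSF5 held them in a peak. Among peaks with PHF20L1, 7 of 13 held them (53.8%, 29.1% to 76.8%) beside 27.9% at all protein-coding promoters, and among those without, 8 of 28 (28.6%, 15.3% to 47.1%) beside 15.5%. The PHF20 peaks with PHF20L1 are wider, at medians of 932 and 507.5 bp, and so hold more sequence in which the letters can occur. The counts were not adjusted for width.

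**Figure D5:**
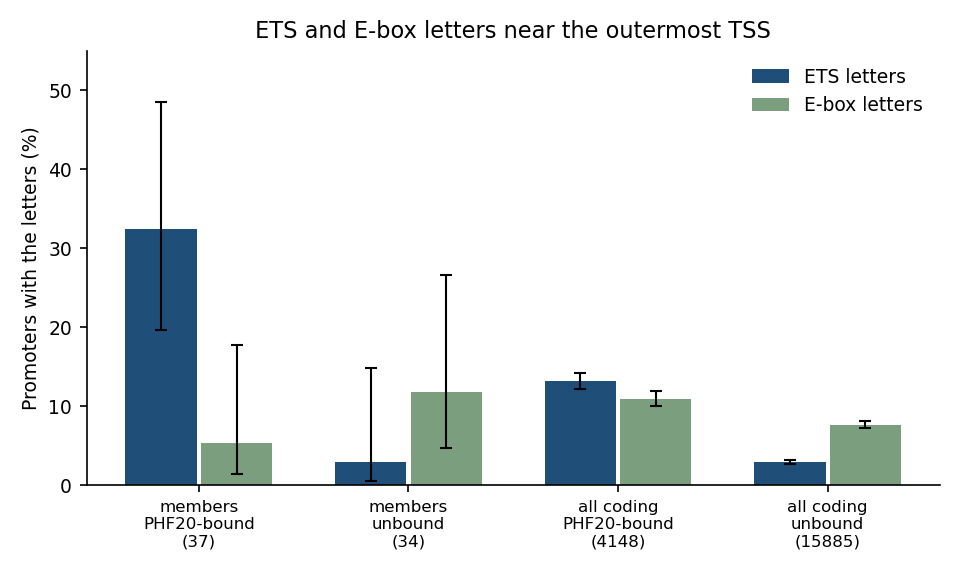
Share of promoters, in percent, with the ETS or the E-box letters within 250 bp before and 50 bp after the outermost TSS, with Wilson 95% intervals. The ETS bar is 32.4% for bound and 2.94% for unbound splicing genes, and 13.2% and 2.98% for all protein-coding genes.

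The E-box CACGTG, also named in earlier results of these data, was found at 2 of 37 bound genes (5.41%, 1.5% to 17.7%), PRPF39 and SNRPA, and at 4 of 34 unbound genes (11.8%, 4.67% to 26.6%), SF3B1, PRPF3, SNRNP48 and LSMEM2. Of all protein-coding promoters 8.36% held it, with 10.9% of the PHF20-bound and 7.69% of the unbound ones, an order opposite to that of the splicing genes, whose intervals overlap. SNRPA held 2 copies, the nearer one 65 bp from the centre of its narrow peak. In the PHF20 peaks the E-box occurred in 4 of 41 (9.76%, 3.86% to 22.5%), beside 16.9% of those at all protein-coding promoters. The GC box GGGCGG occurred at 52.1% of the 71 promoters and 52.4% of all, CCAAT at 46.5% and 35.9%, the NRF1 letters GCATGCGC at 7.04% and 3.78%, the YY1 letters AAGATGGC at 5.63% and 3.03%, the TATA box TATAAA at 7.04% and 10.8%, and ACTACAAT of ZNF143 and THAP11 at 2 of 71 (2.82%) and 0.644%. Each was searched on both strands and counted also where it overlapped another. A match is a description of the sequence, not evidence that the factor binds.

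Other genes of the spliceosome and of snRNP assembly, listed by function rather than by symbol, had PHF20 peaks at 69 of 133 promoters (51.9%, 43.5% to 60.2%) and PHF20L1 peaks at 14 of 133 (10.5%, 6.37% to 16.9%). Among all protein-coding genes these shares were 20.7% and 3.82%. The PHF20 share lay close to the 52.1% of the 71 genes, and the PHF20L1 share below their 18.3% with overlapping intervals. By class, PHF20 peaks were found at 12 of 16 genes of the Prp19 complex and related proteins, 9 of 15 SR-related proteins and SR kinases, 7 of 12 spliceosomal RNA helicases, 4 of 7 exon junction proteins, 3 of 5 second-step factors, 7 of 14 proteins associated with U2, 13 of 26 hnRNP proteins, 3 of 7 minor spliceosome proteins, 5 of 14 proteins associated with U5 and the tri-snRNP, and 6 of 17 genes of the SMN complex and snRNP assembly. The 14 with peaks of both lists were DDX42, ISY1, SYF2, PPIL1, EFTUD2, ZCRB1, MAGOH, MAGOHB, RNPS1, CLNS1A, CLK3, SREK1, PCBP1 and PCBP2. EFTUD2, the U5 GTPase that works beside PRPF8 and SNRNP200, thus had both, while PRPF8 had neither. MAGOH, MAGOHB and RNPS1 made up 3 of the 7 exon junction proteins, and CLNS1A encodes a chaperone that loads Sm proteins.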

How the data were processed

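HA ChIP-Seq libraries of PHF20 and PHF20L1 in U2OS were processed by the authors. They mapped reads to hg38 (Bowtie 1.1.2), kept unique and deduplicated reads and called peaks against input (MACS2 2.2.7.1). They dropped blacklisted regions and 1 PHF20 replicate with few peaks, and retained peaks of the best replicate that overlapped those of the other replicates. The p-value limit was looser in the other replicates than in the best one, and the authors state that signal intensity varied between replicates. The deposited values are peak positions (start and end in bp, counted here from 1) without a score, height or read count, so the depth behind a peak is unknown here. No column of other samples was present.

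Peaks were overlapped with promoters of GENCODE release 44, while the authors used an earlier release. Shares were computed with Wilson 95% intervals, and sequences and the uniqueness of 50-base stretches were read from hg38. Alternatives were other TSS choices, windows, peak widths, overlaps and letter windows, and the canonical TSS for letters was added after seeing the data. Genes named with positions were those with peaks of both lists, the widest and narrowest peaks, 2 peaks, a peak within 5000 bp or a promoter that is not unique. The members, role classes, lists and letters were chosen with earlier results of these data known. Python 3.11.15, numpy 2.4.6, numba 0.67.0, scipy 1.17.1, pysam 0.24.0 and matplotlib 3.10.9 were used, and the overlap and letter searches were tested on simulated data. The values of 1 member are not reported here by name, although it is in the counts.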

Additional observations from a re-analysis of the deposited data

How the results depend on the processing

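No paired analysis was possible because the lists merge the replicates of each protein, and for the same reason no replicate could be left out. The number of splicing genes with a PHF20 peak was 37. It stayed between 31 and 37 under other TSS choices, windows, the peak centre and peaks of at least 300 bp. It was also in this range after leaving out the 5 genes classed as without a part in splicing, or U2AF1. It fell to 24 when peaks under the median width of their list were left out, beside 12.1% of all protein-coding genes. The 13 genes with a PHF20L1 peak, and the 13 with both, depended more on width: 6 and 6 remained with peaks of at least 300 bp (2.27% and 2.21% of all genes), and 4 and 4 at the median width (2.11% and 1.94%), namely SNRPD3, SNRPB2, LSM5 and SRSF11. Requiring the peaks to cover 50% of each other left 1 gene with both, since PHF20L1 peaks are narrower. The 12 bound genes with CCGGAAGT were 15 when whole PHF20 peaks were searched and 14 at the canonical TSS, and the 2 with CACGTG were 4 in whole peaks. The lists give no heights, so weak and strong peaks could not be told apart.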
